A study of Mus musculus with 27 samples.

Results

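H3K4me3, the histone mark of active and poised promoters, was compared between mouse embryonic stem cells (ESC) without Utx and wild-type (WT) ESC by chromatin immunoprecipitation and sequencing. The comparison rests on 2 of the 27 samples of the series, 1 library per genotype, chosen by their sample titles. Both lines were V6.5 ESC grown in 2i/LIF medium without doxycycline: the WT line was Utx+/Y, the knockout (Utx-KO) line Utx-/Y, and nothing in the labels says whether either line was 1 clone. The WT ESC list held 19468 H3K4me3 peaks and the Utx-KO ESC list 20133, of 234651 peaks in all 19 lists of the series. Peaks of these H3K4me3 lists that overlapped by at least 1 bp were merged, which gave the 21938 regions described below. Other lists of the series serve as a backdrop: H3K27me3 in both ESC genotypes, UTX in WT ESC, the same marks in V19-OSKM fibroblasts (Utx+/Y and Utx-/Y, each with and without doxycycline, which induces the OSKM reprogramming factors), UTX in the WT fibroblasts, and 2 clones of aberrant iPS cells (V19-OSKM, Utx-/Y). With 1 library per genotype no difference has a replicate check, and all 95% intervals given cover counting error over regions only.

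UTX (KDM6A) removes methyl groups from H3K27, the residue methylated by Polycomb, and is encoded on the X chromosome. It is also a subunit of the KMT2C and KMT2D complexes, which methylate H3K4 mainly at enhancers, whereas H3K4me3 at promoters is laid down largely by SET1 and KMT2B complexes. In ESC, promoters of developmental regulators often carry H3K4me3 and H3K27me3 together and are then called bivalent. Regions are named by mm9 position, since the gene table used here was of another build, and no gene is named. For the same reason neither the Utx gene nor pluripotency genes were looked up in the lists, and the genotype and cell type labels were taken as given. The Utx-KO ESC list held no peak on Y, against 3 in WT ESC, although both labels name a Y chromosome; values without X and Y are given with the chromosomes at the end.

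Most H3K4me3 regions were found in both genotypes, and those found in 1 only were weak. Both lists shared 16715 regions, while 2773 (12.6% of 21938) were in the Utx-KO ESC list only and 2450 (11.2%) in the WT ESC list only. These are called gained and lost regions below for brevity; no test stands behind either word. Utx-KO ESC met 87.4% of the WT peaks (Wilson interval 86.9 to 87.9), and WT ESC met 86.2% (85.7 to 86.7) of the Utx-KO peaks. The log2 ratio of regions only in Utx-KO ESC over those only in WT ESC was 0.18 (exact interval 0.10 to 0.26). That small excess depended on how the lists were cut. Counting only peaks with a deposited score of at least 100 in both lists gave 2027 regions against 1047 (log2 ratio 0.95), and taking the 19468 top-scoring peaks of each list turned the ratio to -0.15. Scores of at least 100 were held by 82.7% of all Utx-KO and 79.4% of all WT peaks.

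Shared and single-list regions differed in the deposited score of their peaks, whose definition was not given in the sources used here. Regions in both lists had a median score of 865 and a median width of 2443 bp. Their score is the highest over the peaks of both lists and their width the span of all merged peaks, so both can exceed those of a single peak. Regions only in WT ESC had a median score of 67.2 and a median width of 1142 bp, and regions only in Utx-KO ESC had 82.7 and 979 bp. Among WT peaks that scored 1000 or more, 6159 of 6160 met a Utx-KO peak, and all 7619 Utx-KO peaks in that range met a WT peak. At scores from 50 to under 75 the share was 43.3% (41.4 to 45.2) of WT and 43.8% (41.6 to 46.1) of Utx-KO peaks. Between these ends the genotypes parted. WT peaks scoring 100 to under 200 were met in 86.4% (85.1 to 87.6) and Utx-KO peaks of the same scores in 72.8% (71.1 to 74.4). Read depth was unknown, so equal scores need not mean equal enrichment in the 2 lists.

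**Figure D1:**
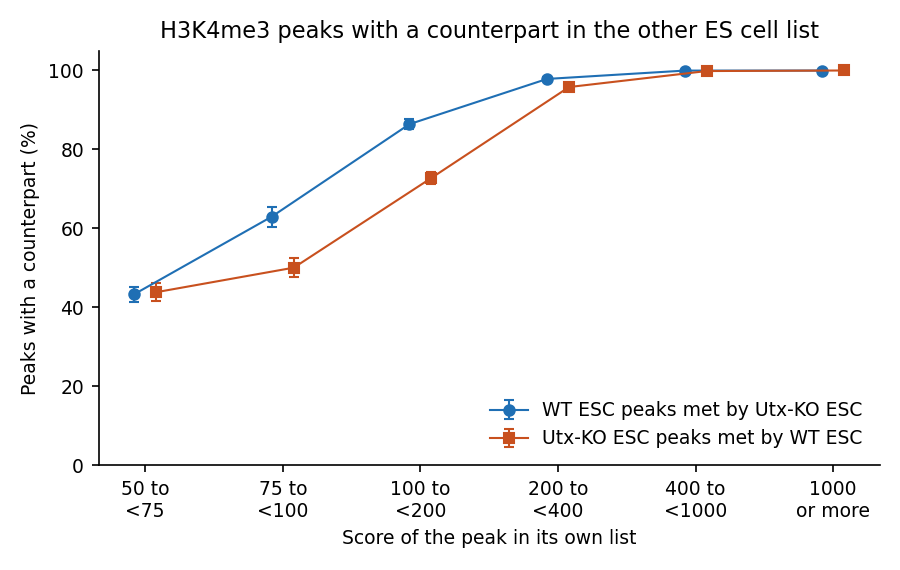
Percentage of H3K4me3 peaks that overlap a peak of the other ESC list (y axis) by the deposited score of the peak in its own list (x axis), for WT ESC (circles) and Utx-KO ESC (squares), with Wilson 95% intervals. Nearly every peak scoring 400 or more has a counterpart, and from 50 to under 75 the curves sit at 43.3% and 43.8%.

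The strongest H3K4me3 region that Utx-KO ESC lacked was chromosome 14 from 49283394 to 49287249. It was 3856 bp wide and scored 1124 in WT ESC, against 426 for the next region of its class. The nearest Utx-KO H3K4me3 peak lay 0.812 kb away, and within 50 kb on either side Utx-KO ESC had 3 H3K4me3 peaks and WT ESC 5. H3K27me3 peaks covered more of this region in Utx-KO ESC than in WT ESC. The H3K27me3 list of Utx-KO ESC was also far longer as a whole, with 79.8 Mb covered against 6.20 Mb in WT ESC. In Utx-KO ESC its peaks covered 96.4% of the region, inside a span from 49282998 to 49294893. In WT ESC a peak scoring 74.2 covered 21.4%. The region carried H3K27me3 in 6 of the 8 H3K27me3 lists of the series and H3K4me3 in 4 of the 8 H3K4me3 lists: WT ESC, WT fibroblasts with doxycycline and both aberrant iPS clones. It held no WT ESC UTX peak, although 7 lay within 50 kb.

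The other leading regions of WT ESC scored far lower. Chromosome 4 from 145694793 to 145696441 scored 426, and its only other H3K4me3 list was iPS clone 2. Chromosome 4 from 129487352 to 129489386 scored 395 and held a UTX peak from 129488090 to 129488662. Chromosome 2 (122463423 to 122465208, score 386) carried H3K27me3 in Utx-KO ESC but not in WT ESC, as did chromosome 9 at 50302216 to 50305056 (302). Both had H3K4me3 in WT fibroblasts with doxycycline and in iPS clone 2, and the latter in iPS clone 1 too. A pair of these regions was marked in WT ESC alone among the 8 H3K4me3 lists. One lay on chromosome 11 at 120711085 to 120714971 (score 317, 3887 bp) and the other on chromosome 1 at 193769229 to 193772469 (300, 3241 bp), both wider than the class median of 1142 bp. Chromosome 11 from 62633574 to 62635438 (score 349), by contrast, was marked in every H3K4me3 list except that of Utx-KO ESC.

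Gained regions had a lower top score than lost ones but more members that scored 100 or more, 910 (32.8%) against 455 (18.6%). The Utx-KO list as a whole also scored higher, with a median of 538 against 421 in the WT list. Scores of 100 or more were held by 82.7% of all Utx-KO and 79.4% of all WT peaks. The strongest gained region, chromosome 6 from 149513640 to 149515580, scored 614 and stood alone, with the nearest WT ESC H3K4me3 peak 155 kb away. It was also marked in WT and Utx-KO fibroblasts without doxycycline, in WT fibroblasts with it and in both iPS clones. Chromosome 4 from 43032062 to 43034905 (score 565) lay only 1.87 kb from a WT peak in a dense stretch with 7 further H3K4me3 peaks of each genotype within 50 kb on either side. Chromosome 15 from 77786215 to 77787598 (499) had H3K4me3 in 6 lists and an H3K27me3 peak over 72.9% of its length in Utx-KO ESC, with none in WT ESC. Positions 137023651 to 137026324 of chromosome 1 (419) and 42371718 to 42373065 of chromosome 19 (340) were shared with iPS clone 2 alone. Of all gained regions, 27.6% had H3K4me3 in no other list and 67.7% had it in iPS clone 2. Clone 2 met 90.7% (83.8 to 94.9) of the gained peaks scoring 200 to under 400. Each of the 10 leading gained regions had H3K4me3 in at least 1 other list. All but 1 had it in iPS clone 2. The exception, chromosome 2 from 98506134 to 98507750 (score 365), also overlapped peaks of 3 H3K27me3 and 2 UTX lists, and the nearest WT ESC H3K4me3 peak lay 1199 kb away.

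H3K4me3 regions missing from Utx-KO ESC more often lay on UTX peaks of WT ESC. A UTX peak was met by 275 of the 2450 regions only in WT ESC (11.2%, interval 10.0 to 12.5), by 1022 of the 16715 shared regions (6.11%, 5.76 to 6.49) and by 76 of the 2773 regions only in Utx-KO ESC (2.74%, 2.20 to 3.42). The shared regions were the widest of these classes. Seen from the UTX list, 1326 of its 5076 peaks lay on WT ESC H3K4me3, and 952 of these (71.8%, 69.3 to 74.2) lay on H3K4me3 in Utx-KO ESC as well. Another 374 lay on H3K4me3 in WT ESC only, 91 in Utx-KO ESC only and 3659 in neither.

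The same order held among peaks of similar score. Of WT peaks scoring 75 to under 100, 14.5% (11.7 to 17.8) of those without a Utx-KO counterpart met UTX, against 3.98% (2.87 to 5.48) of those with one. At 100 to under 200 the shares were 13.9% (10.8 to 17.6) and 5.55% (4.72 to 6.51), and the single-list peaks were slightly narrower (median 1488 against 1563 bp). Put the other way round, 68.2% (59.0 to 76.1) of the 110 WT peaks with UTX scoring 75 to under 100 had no Utx-KO counterpart, against 34.3% (31.8 to 37.0) of the 1287 without UTX. At 100 to under 200 the loss was 28.2% (22.4 to 34.9) with UTX and 12.6% (11.4 to 13.8) without. At scores of 400 or more hardly any WT peak was lost, with or without UTX. From 400 to under 1000 these were none of the 181 with UTX and 1 of the 3584 without. At 1000 or more they were none of the 470 with UTX and 1 of the 5690 without.

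In the Utx-KO list the relation ran in the opposite sense. Of Utx-KO peaks scoring 100 to under 200, 1.38% (0.772 to 2.45) of those without a WT counterpart met a UTX peak, against 5.49% (4.60 to 6.54) of those with one. At 200 to under 400 the shares were 3.70% (1.45 to 9.14) and 3.89% (3.20 to 4.73), with overlapping intervals. UTX was mapped in WT cells, so the UTX and the WT H3K4me3 libraries share their cells while the Utx-KO library does not, and what part this has in the shares was not tested. UTX peaks mapped in WT fibroblasts with doxycycline were most frequent in shared regions instead. They were met by 17 regions only in WT ESC (0.694%, 0.434 to 1.11), 213 shared ones (1.27%, 1.12 to 1.46) and 15 only in Utx-KO ESC (0.541%, 0.328 to 0.891). Only 0.452% of the peaks of that UTX list scored 100 or more, against 26.6% of WT ESC UTX peaks. H3K4me3 of those fibroblasts lay on 28.0% of the lost, 83.4% of the shared and 27.9% of the gained regions.

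**Figure D2:**
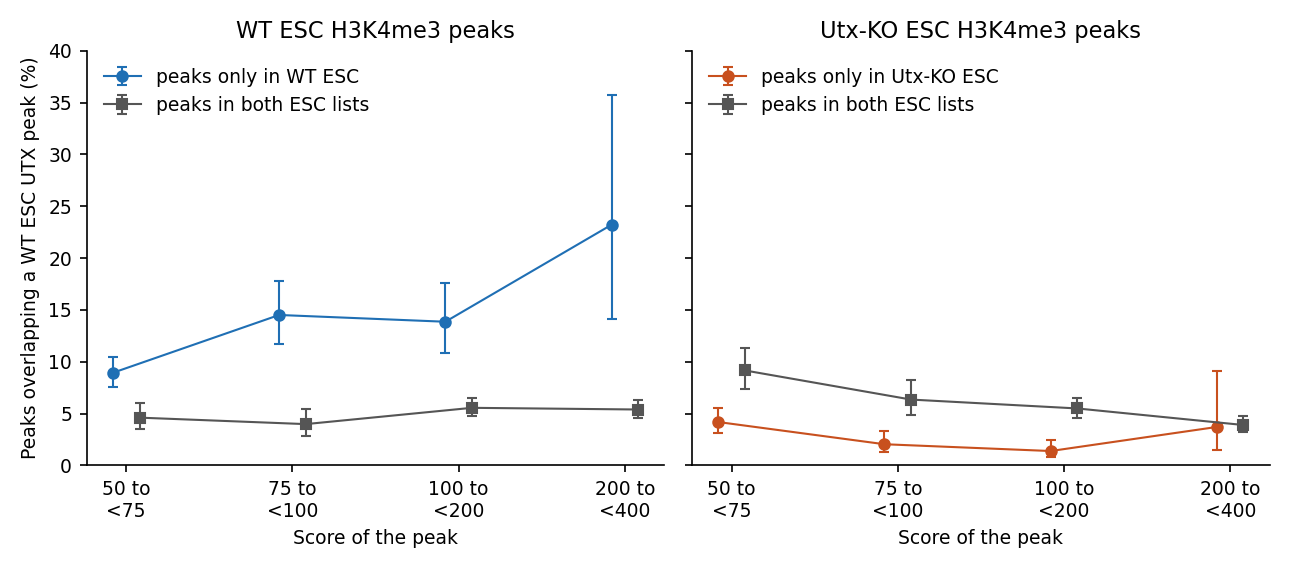
Percentage of H3K4me3 peaks that overlap a WT ESC UTX peak (y axis) by score (x axis) in the WT ESC list (left) and the Utx-KO ESC list (right), for peaks without (circles) and with (squares) a counterpart in the other genotype; bars are Wilson 95% intervals. On the left the circles lie above the squares in all 4 score ranges, from 8.93% against 4.60% at 50 to under 75 to 23.2% against 5.39% at 200 to under 400, the latter with 56 single-list peaks.

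In each class, regions with UTX more often had H3K4me3 in no other cell state than regions without it, and few held H3K27me3. Of the 275 lost regions with UTX, 131 (47.6%, 41.8 to 53.5) had no H3K4me3 in any other list, against 32.4% (30.5 to 34.4) of the 2175 lost regions without UTX. The shares with H3K4me3 in the Utx-KO iPS clones were 22.5% (18.0 to 27.8) and 41.8% (36.1 to 47.7) with UTX, and 36.6% (34.6 to 38.6) and 63.6% (61.6 to 65.6) without. Of the 76 gained regions with UTX, 35 (46.1%, 35.3 to 57.2) had H3K4me3 in no other list, against 27.1% (25.4 to 28.8) of those without. Among shared regions 64 of 1022 (6.26%) with UTX and 315 of 15693 (2.01%) without had it in neither fibroblasts nor iPS cells. H3K27me3 of Utx-KO ESC lay on 11 of the 275 (4.00%, 2.25 to 7.02) and on 22.0% (20.3 to 23.8) of the lost regions without UTX. It lay on 6.58% (2.84 to 14.5) and 30.3% (28.6 to 32.1) of the gained, and on 5.77% (4.50 to 7.38) and 26.6% (25.9 to 27.3) of the shared regions. The 5 leading lost regions with UTX included those on chromosomes 4 (score 395) and 11 (317) given above. The others lay on chromosome 8 at 3397997 to 3403526 (score 341, 5530 bp wide), on chromosome 7 at 133369792 to 133371953 (299) and on chromosome 6 at 125384059 to 125386623 (283). None of these 5 had an H3K27me3 peak in any list, and those on chromosomes 7 and 11 had H3K4me3 in no other list. The 2 leading gained regions with UTX, the one on chromosome 2 at 98506134 and one on chromosome 9 at 35112540 to 35113712 (score 279), each overlapped peaks of 3 H3K27me3 and 2 UTX lists. No region was left out for overlapping peaks of many unlike lists, and whether these 2 are artefacts was not tested.

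H3K4me3 peaks of Utx-KO ESC were more numerous but narrower. They covered 43.3 Mb against 46.1 Mb in WT ESC, with a median width of 1897 bp (quartiles 1258 and 2716) against 2099 bp (1478 and 2917). In the 15898 regions formed by 1 peak of each list, the median log2 width ratio of Utx-KO over WT was -0.089 (interval -0.094 to -0.085), a median fold of 0.940, and 10262 regions (64.5%) were narrower in Utx-KO ESC. Across these 15898 regions the widths of both lists were correlated with a Spearman rho of 0.885 and the scores with 0.942, as a description only, since regions of 1 list share that library's depth. Differences of at least 2-fold were few, with 228 regions (1.43%) narrower and 31 (0.195%) wider in Utx-KO ESC. A single WT peak was met by several Utx-KO peaks in 522 regions, and a single Utx-KO peak by several WT peaks in 204.

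Narrowing was larger at UTX peaks. The median log2 width ratio was -0.17 (-0.20 to -0.16) in the 891 of these regions with a WT ESC UTX peak and -0.084 (-0.089 to -0.079) in the 15007 without. At least 2-fold narrowing was seen in 56 of the 891 (6.29%) and 172 of the 15007 (1.15%), and none of the 891 was 2-fold wider. Among peaks of 2000 to under 3000 bp in WT ESC the medians were -0.21 (-0.25 to -0.14) with UTX and -0.095 (-0.10 to -0.089) without. Where both peaks scored 1000 or more they were -0.12 (-0.14 to -0.090) over 388 regions with UTX and -0.058 (-0.063 to -0.051) over 5205 without. Those regions were not matched for width, with median WT widths of 4052 and 3149 bp. WT peaks under 1000 bp were the exception. Their medians were 0.23 (-0.18 to 0.48) with UTX, over only 9 regions, and 0.22 (0.15 to 0.26) over the 453 without. The WT width sets these classes and is also the denominator of the ratio, and what part this has in the medians was not tested. UTX was mapped in the cells of the WT but not of the Utx-KO H3K4me3 list, and its part in the widths was not tested either.

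**Figure D3:**
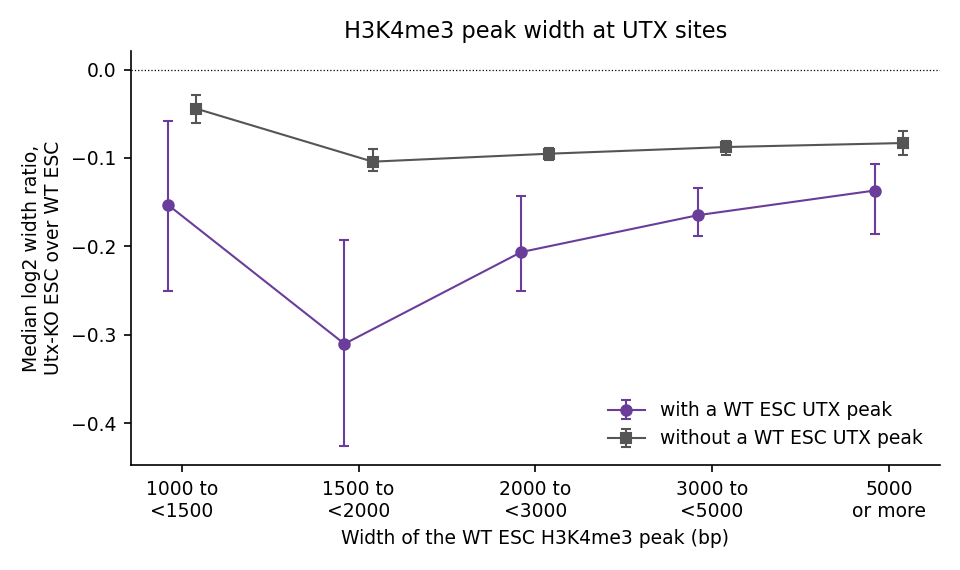
Median log2 ratio of H3K4me3 peak width, Utx-KO ESC over WT ESC (y axis), by the width of the WT peak (x axis), for regions with (circles) and without (squares) a WT ESC UTX peak; bars are order-statistic 95% intervals of the median and the dotted line marks equal width. WT peaks under 1000 bp, whose medians are above 0, are not drawn. The WT width on the x axis is also the denominator of the ratio. The medians drawn lie below 0, and at each width drawn the circle lies below the square, most so at 1500 to under 2000 bp (-0.31 against -0.10).

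Broad H3K4me3 domains, which in many cell types lie over genes of cell identity, were fewer in Utx-KO ESC. Peaks of at least 5000 bp numbered 779 in WT ESC (4.00% of its peaks, 3.74 to 4.29) and 575 in Utx-KO ESC (2.86%, 2.63 to 3.10). Of the 779, 777 met a Utx-KO peak and 481 (61.7%, 58.3 to 65.1) met one that was itself that broad. Of the 575 broad Utx-KO peaks, 480 (83.5%, 80.2 to 86.3) met a broad WT peak. UTX lay on 22.7% (19.9 to 25.8) of the 779 and 20.3% (17.3 to 23.8) of the 575, and on 1291 of all 19468 WT peaks. H3K27me3 of Utx-KO ESC lay on 24 of the 779 (3.08%), and on 4719 of all WT peaks. WT fibroblasts without doxycycline had H3K4me3 at 677 of the 779 (86.9%), against 68.3% of all shared regions and 10.2% of all regions only in WT ESC. Wide peaks can meet a list more often by their width, and what part this has in these shares was not tested.

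Single regions departed far from the median. Chromosome 14 from 47004766 to 47010827 was 6062 bp wide in WT ESC and 1592 bp in Utx-KO ESC, a log2 ratio of -1.93. On chromosome 4, 131475623 to 131478863 was 3241 and 863 bp wide (-1.91), and on chromosome 9, 58043587 to 58048505 was 4919 and 1323 bp (-1.89). All 3 carried H3K27me3 in Utx-KO ESC, and those on chromosomes 14 and 4 carried it in WT ESC too. The next most narrowed regions carried none in either genotype: chromosome 18 at 12898818 to 12900797 (1980 and 535 bp, -1.89), which held a UTX peak, and chromosome 4 at 146604264 to 146607370 (3107 and 926 bp, -1.75). In the other direction chromosome 9 from 118834014 to 118837153 was 889 bp wide in WT ESC and 3140 bp in Utx-KO ESC, where it also carried H3K27me3 (log2 ratio 1.82). Positions 126775921 to 126779480 of chromosome 10 (1417 and 3560 bp, 1.33) and 138684839 to 138688197 of chromosome 7 (1465 and 3359 bp, 1.20) carried H3K27me3 in both genotypes. Positions 35011565 to 35015971 of chromosome 7 (1739 and 4407 bp, 1.34) carried none in either, nor did positions 173180536 to 173183934 of chromosome 1 (1527 and 3399 bp, 1.15). Among all regions of 1 peak of each list, 2.56% of those with H3K27me3 in both genotypes were at least 2-fold narrower in Utx-KO ESC. The share was 1.04% with H3K27me3 in Utx-KO ESC only and 1.42% with none. At least 2-fold wider were 0.512%, 0.104% and 0.186% of these sets.

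Most H3K4me3 peaks on H3K27me3 were found in both genotypes. Of the 1364 WT ESC H3K4me3 peaks on WT ESC H3K27me3, 1247 (91.4%, 89.8 to 92.8) met a Utx-KO H3K4me3 peak, against 87.1% (86.6 to 87.6) of the 18104 others. Among WT peaks scoring 75 to under 200 the shares were 88.2% (85.0 to 90.7) and 77.6% (76.3 to 78.9). The far longer H3K27me3 list of Utx-KO ESC (36231 peaks, against 5679 in WT ESC) gave the same order, with 87.0% (85.2 to 88.5) of WT H3K4me3 peaks of those scores met where Utx-KO ESC had H3K27me3 and 73.9% (72.2 to 75.5) met elsewhere. From the Utx-KO side the order depended on the score. Over all Utx-KO H3K4me3 peaks, 83.8% (82.7 to 84.7) of those on Utx-KO H3K27me3 met a WT peak, against 87.1% (86.5 to 87.6) of the others, and among scores of 75 to under 200 the shares were 68.3% (66.0 to 70.5) and 62.9% (61.2 to 64.7).

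Gained regions carried H3K27me3 more often than lost ones. H3K27me3 of Utx-KO ESC lay on 29.6% (28.0 to 31.4) of the regions only in Utx-KO ESC, 25.3% (24.7 to 26.0) of the shared regions and 20.0% (18.5 to 21.6) of those only in WT ESC. H3K27me3 of WT ESC lay on 7.18% (6.27 to 8.20), 7.65% (7.25 to 8.06) and 4.78% (4.00 to 5.69). The place of the shared regions depended on the score. With scores of at least 100 in both lists, 38.5%, 28.1% and 23.3% of gained, lost and shared regions carried H3K27me3 of Utx-KO ESC, and 11.1%, 8.98% and 7.06% that of WT ESC. With an overlap of 50% or more of the shorter peak the WT ESC H3K27me3 list met 4.80%, 2.82% and 5.11%. Among peaks scoring 100 to under 200 in their own list, however, shared peaks carried H3K27me3 of Utx-KO ESC most often. In the Utx-KO list the shares were 33.6% (30.4 to 37.0) of the gained and 39.1% (37.1 to 41.2) of the shared peaks, and in the WT list 25.4% (21.4 to 29.9) of the lost and 41.8% (39.9 to 43.8) of the shared peaks. The gained peaks of these scores were narrower than the lost ones (median 1176 against 1488 bp). The Utx-KO H3K27me3 and H3K4me3 libraries share their cells, and what part this has in the difference was not tested. Lost regions with H3K27me3 in Utx-KO ESC only numbered 377 (15.4%, 14.0 to 16.9), and 1956 of the 2450 (79.8%, 78.2 to 81.4) had H3K27me3 in neither genotype. H3K27me3 in Utx-KO ESC only was more frequent in shared regions (17.9%, 17.3 to 18.4) and in gained regions (22.6%, 21.1 to 24.2). It was found in neither genotype at 74.5% of the shared and 70.2% of the gained regions. Lost regions with H3K27me3 in Utx-KO ESC were led by those on chromosomes 14, 2 and 9 named above. Next came chromosome 19 at 45224490 to 45226463 (score 289) and chromosome 17 at 23835816 to 23837687 (285).

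Single-list regions of either genotype were marked about equally often in fibroblasts. H3K4me3 was present in WT fibroblasts at 10.6% (9.48 to 11.8) of the gained and 10.2% (9.11 to 11.5) of the lost regions, and in Utx-KO fibroblasts at 11.4% (10.2 to 12.6) and 10.2% (9.11 to 11.5). With doxycycline the shares were 27.9% (26.2 to 29.6) and 28.0% (26.3 to 29.9) in WT, and 20.1% (18.6 to 21.6) and 19.7% (18.2 to 21.3) in Utx-KO fibroblasts. Of the lost regions marked in 1 untreated fibroblast genotype only, 66 were marked in WT and 66 in Utx-KO cells. For the gained regions the numbers were 72 and 94 (56.6% in Utx-KO only, 49.0 to 63.9), near the 506 and 716 (58.6%, 55.8 to 61.3) of the shared regions. With doxycycline most such regions were marked in WT only, with 257 against 53 of the lost, 288 against 71 of the gained and 856 against 152 of the shared regions. Shared ESC regions were marked far more often, at 68.3% (67.6 to 69.0) in WT fibroblasts.

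The aberrant iPS clones, which also lack Utx, carried gained regions somewhat more often than lost ones. The shares were 41.0% (39.2 to 42.8) and 35.0% (33.1 to 36.9) in clone 1 and 67.7% (66.0 to 69.4) and 61.2% (59.2 to 63.1) in clone 2. Gained regions also had higher scores than lost ones, and among single-list peaks scoring 100 to under 200 clone 1 met 53.5% (50.0 to 56.9) of the gained and 53.4% (48.5 to 58.3) of the lost. Clone 2 met 79.9% (77.0 to 82.6) and 74.8% (70.3 to 78.8) of these.

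**Figure D4:**
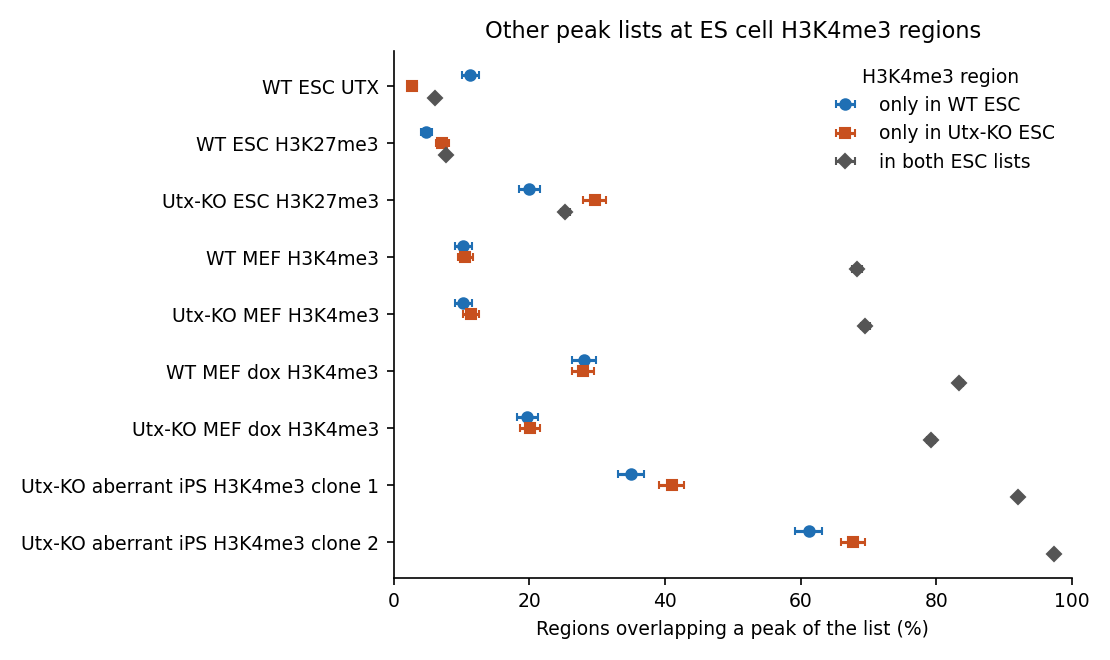
Percentage of H3K4me3 regions that overlap a peak of each list on the y axis, for regions only in WT ESC (circles), only in Utx-KO ESC (squares) and in both (diamonds), with Wilson 95% intervals. Lost and gained regions overlap the fibroblast lists alike, and part most at UTX (11.2% against 2.74%) and at H3K27me3 of Utx-KO ESC (20.0% against 29.6%).

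Of the chromosomes, Y, with only 3 regions, and X had the lowest ratios of gained over lost regions. On the autosomes the log2 ratio of gained over lost regions was 0.20 (0.12 to 0.28), close to the 0.18 of all chromosomes, and it was below 0 on chromosomes 10, 13 and 14. On X, which encodes UTX, there were 43 gained and 73 lost regions (log2 ratio -0.75, -1.34 to -0.20), with 472 in both. Its interval overlapped those of chromosomes 2, 10, 13, 14 and 18. The lowest autosomal value was that of chromosome 14, with 86 gained and 114 lost (-0.40, -0.83 to 0.0099), and the highest that of chromosome 19, with 98 and 67 (0.54, 0.086 to 1.02). Y had 3 H3K4me3 peaks in WT ESC, at 346881 to 348014 (score 151), 580842 to 582351 (295) and 621163 to 623485 (288), and none in Utx-KO ESC, although its label reads Utx-/Y. The Utx-KO fibroblast list without doxycycline had none either, whereas the other 5 H3K4me3 lists had 2 to 7, those of both Utx-KO iPS clones included. No Y peak was found for H3K27me3 in either ESC genotype, nor for UTX in WT ESC.

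**Figure D5:**
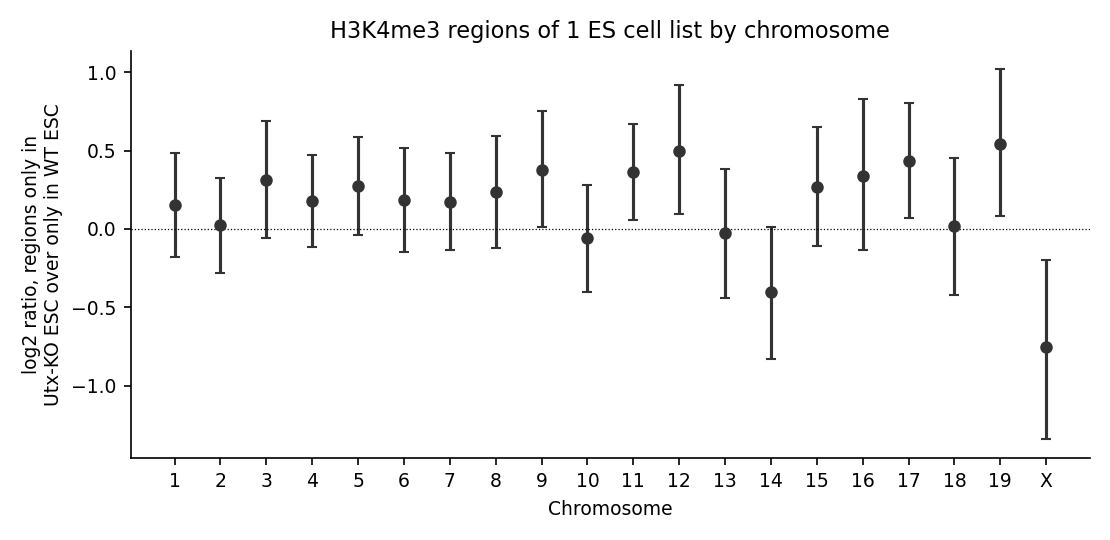
Log2 ratio of H3K4me3 regions found only in Utx-KO ESC over those found only in WT ESC (y axis) for each chromosome but Y (x axis), with exact 95% intervals. X has the lowest value, -0.75, and its interval lies below 0; Y, with 0 against 3 regions, is not drawn.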

How the data were processed

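Peak lists of 19 samples were used; the 8 whole-cell extracts were not analysed here. CASAVA 1.8.2, Bowtie 0.12.5 and MACS 1.4.1 are named with mm9 per the submitters' processing notes, without settings or controls. The deposited score of each peak is the authors' own value, at least 50 in every list, and served for ranks, minimum values and score ranges. It was also set side by side between the lists, where equal scores need not mean equal enrichment. Read depth was unknown. Starts are 1-based, and 1 peak off the numbered chromosomes, X and Y was left out. Overlap meant at least 1 bp. The log2 ratio adds 1 to each count and has an exact (Clopper-Pearson) 95% interval, shares have Wilson intervals and medians order-statistic intervals. With 1 library per genotype nothing was tested.

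The regions and their grouping were chosen with earlier results of these data known. Regions were named from the 10 highest scores per direction, the 5 largest width changes each way with scores of at least 100 in both lists, and the 5 highest scores with UTX in each direction or, among lost regions, with H3K27me3 of Utx-KO ESC. Gene lists and gene starts needed a gene table of mm9 and were not used here. The overlap code was tested on 5 simulated pairs of lists and gave the counts of bedtools 2.31.1 for 38 of 38 pairs. Calculations used scipy 1.17.1, pandas 2.3.3 and numpy 2.4.6 under Python 3.11.15, with plots from matplotlib 3.10.9. Alternatives changed the score minimum, the overlap, the number of peaks, the joining of close peaks and the chromosomes used.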

Additional observations from a re-analysis of the deposited data

Results flagged for a closer look

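The difference in H3K4me3 between Utx-KO and WT cells had opposite signs in ESC and in fibroblasts given doxycycline. The log2 ratio of regions only in Utx-KO over those only in WT cells was 0.18 in ESC and -2.20 in fibroblasts with doxycycline, and the median log2 width ratio of regions formed by 1 peak of each list was -0.089 and 0.21. Fibroblasts without doxycycline had the signs of ESC, with 0.84 and -0.14. The ESC ratio itself turned to -0.15 with equal numbers of top-scoring peaks. Each value rests on 1 library per genotype, so no difference between the states was tested.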

How the results depend on the processing

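No paired analysis was possible because each genotype had 1 library. The counts of regions in 1 list depended most on the score. With scores of at least 100 in both lists, the log2 ratio of gained over lost regions was 0.95, 93.2% of WT and 87.8% of Utx-KO peaks were met, and the median log2 width ratio was -0.081. H3K27me3 of WT ESC then lay on 11.1% of the gained, 8.98% of the lost and 7.06% of the shared regions, H3K27me3 of Utx-KO ESC on 38.5%, 28.1% and 23.3%, and UTX on 14.0% of the lost. With scores of at least 100 against any score in the other list the ratio was 1.00, and 97.1% and 94.5% were met. With equal numbers of top-scoring peaks the ratio reversed to -0.15, and 86.3% and 87.7% were met.

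Where an overlap had to cover 50% or more of the shorter peak, 86.9% and 85.5% were met. UTX lay on 7.78% of the lost, 1.89% of the gained and 5.25% of the shared regions, H3K27me3 of WT ESC on 2.82%, 4.80% and 5.11%, and H3K27me3 of Utx-KO ESC on 15.9%, 25.9% and 19.1%. With peaks less than 1000 bp apart joined, 88.1% and 86.7% were met, and the width ratio was -0.084. The cause was not tested. The other 20 values, all 13 on autosomes alone among them, stayed within the 95% interval of the reported value. One of these, leaving out regions less than 2000 bp from a peak of the other list, was chosen after seeing the data. With the higher score, the stricter overlap or autosomes alone, UTX was most frequent in lost and least frequent in gained regions. The count over gene starts was not run. Unknown read depth limits every count of weak peaks.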

Other observations

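The longest uninterrupted series of regions only in WT ESC had 5 members, on chromosome 7 from 56707383 to 56945098, and the longest of regions only in Utx-KO ESC had 4, among them chromosome 5 from 115886284 to 115921577 (highest score 311). The strong lost region on chromosome 11 from 62633574 headed a series of 4 that ended at 62661541. These were chosen after their values were seen. Of the gained regions, 456 (16.4%, 15.1 to 17.9) lay less than 2000 bp from a WT peak, and of the lost regions 361 (14.7%, 13.4 to 16.2) lay that close to a Utx-KO peak. The median distance to the nearest peak of the other genotype was 12.9 kb for gained and 15.7 kb for lost regions.

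Among gained regions, 765 (27.6%) had H3K4me3 in no other list, against 836 (34.1%) of the lost regions, and 10823 of the 16715 shared regions (64.8%) had it in all 8 lists.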
